A study of Mus musculus with 9 samples.

Results

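The genes described here encode the secreted Wnt proteins, their Frizzled, LRP and LGR receptors, the R-spondins that enhance the signal and the secreted proteins that block it. They were chosen by name: a probe set belonged to the set if its 1 annotated gene symbol was *Wnt*, *Fzd*, *Sfrp*, *Dkk* or *Rspo* followed by a digit, or *Lgr4* to *Lgr6*, *Lrp5*, *Lrp6*, *Wif1*, *Frzb*, *Axin2* or *Kremen1*. This gave 50 genes of the 19938 that had a probe set naming them alone, covered by 51 probe sets. *Wnt4* had the extra one, and the brighter of its probe sets was used.

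Expression was measured on 9 microarrays. The cells were 3T3 fibroblasts, which are of mouse embryonic origin and grow indefinitely in culture. Wild type here means 3T3 cells that express an irrelevant short hairpin RNA (shRNA), and 3 cultures each were sampled without stimulation and 1 h after the addition of TNF-α at 5 ng/ml. TNF-α is an inflammatory cytokine that turns on the transcription factor NF-κB. The third group was Trap-80 knock-down cells given the same stimulation (n = 3). Trap-80 is a subunit of Mediator, the complex through which activators contact RNA polymerase II, and is encoded by *Med17*. The knock-down cells were clonal lines that stably express an shRNA against Trap-80, delivered by a retroviral vector. The study took a single clone of each hairpin forward and used the same hairpin in its main experiments, and the labels do not name the clone on the arrays. As unstimulated knock-down cells were not analysed here, differences of the lines at rest and in their response to TNF-α cannot be told apart. The same holds for the knock-down and any other difference between a clone and the control cells.

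Wnt proteins are lipid-modified, secreted ligands that bind Frizzled receptors. Together with the co-receptors Lrp5 and Lrp6 they lead to the stabilisation of β-catenin, which then activates genes with TCF and LEF factors, whereas other receptors such as Ror2 serve β-catenin-independent branches. R-spondins, acting through Lgr4 to Lgr6, protect Frizzleds from the ubiquitin ligases Rnf43 and Znrf3. The secreted Frizzled-related proteins (Sfrp) and Wif1 bind Wnts directly, while Dkk1 binds the LRP co-receptors together with Kremen. Fibroblasts are known as a source of several of these ligands, R-spondins and antagonists in connective tissue.

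The signals are log2 values from the robust multi-array average (RMA), so a difference of 1 is a 2-fold difference. The medians of the 9 arrays lay between 4.47 and 4.59. Arrays of one group correlated at 0.985 to 0.992 over all probe sets, and arrays of different groups at 0.981 to 0.991. *Med17* itself was at 8.03 ± 0.12 (SD, n = 3) in unstimulated and 7.89 ± 0.11 in stimulated wild-type cells, and at 6.25 ± 0.09 in the knock-down cells, where 32.0% of the stimulated wild-type signal was left. This is a share of array signal and not of Trap-80. By quantitative PCR the paper found a stronger reduction of the mRNA, and its western blots detected no Trap-80 protein in knock-down cells. Of 12 fibroblast markers, 11 were above the dim range defined below, among them *Col1a1*, *Vim* and *Pdgfrb*. The lists for adipocytes, muscle, macrophages, endothelium and epithelium had 26 of their 30 markers in the dim range, and none of these lists had a member that passed the test between the knock-down and stimulated wild-type cells. The adipocyte marker *Lpl* was higher on all knock-down arrays, by 0.99 from stimulated (adjusted p = 0.062) and by 1.05 from unstimulated wild-type cells (adjusted p = 0.040), while *Adipoq*, *Fabp4* and *Pparg* were dim. Of 6 measured markers of bone and cartilage cells, *Col2a1*, which encodes cartilage collagen, was lower in the knock-down cells, with a difference of -1.04 (adjusted p = 0.0050), and *Sox9* was lower than in unstimulated wild-type cells (-0.37, adjusted p = 0.021). Within the fibroblast list *Pdgfra* fell by 1.89 (adjusted p = 9.5e-05), and *Thy1*, which encodes a surface glycoprotein, rose by 2.09 (adjusted p = 4.8e-04) with *S100a4* (0.55, adjusted p = 0.011). The part of these marker differences in the results below was not tested. In such bulk RNA, fewer cells that express a gene and less of its RNA per cell cannot be told apart.

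Most of the Wnt family had little signal in these fibroblasts. Of the 50 members, 29 had all group means below 5.02, the median of the tested probe sets, and are called dim here. This is no call of absence, and since probes differ in affinity the level of one gene was not set against that of another. A gene was not dim if any group mean reached 5.02, even if only the group with the higher signal did. The shares called among genes that were not dim thus lean in part on this filter. The dim members were 12 of the 19 Wnt ligands, 3 of the 10 Frizzleds, 3 of the 4 R-spondins, *Lgr5* and *Lgr6*, 5 of the 6 Wnt-binding antagonists, 3 of the 4 Dickkopfs and *Axin2*. Each of the R-spondin, Wnt-binding antagonist and Dickkopf groups thus had a single member above the dim range, which was *Rspo2*, *Sfrp1* and *Dkk3*, respectively. Both LRP co-receptors were above it, as were *Fzd1*, *Fzd2*, *Fzd3*, *Fzd5*, *Fzd6*, *Fzd7*, *Fzd8* and the ligands *Wnt4*, *Wnt5a*, *Wnt5b*, *Wnt9a*, *Wnt9b*, *Wnt10a* and *Wnt10b*. In 26 of the 50 members (52.0%) a value was shared exactly by at least 2 arrays, which was also so in 58.9% of all tested probe sets, and 21 of these 26 were dim.

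The first comparison asked how the family differed between Trap-80 knock-down and wild-type cells, both after TNF-α. The secreted regulators gave the largest differences: *Rspo2*, *Sfrp1* and *Dkk3*, the members above the dim range in their groups, were all lower in the knock-down cells, at 30.7%, 29.2% and 41.2% of the wild-type signal. Of the receptors, *Fzd5* fell and *Fzd6* rose. In all, 1 of 50 members was higher and 4 were lower at an adjusted p below 0.05 (10.0% in either direction), against 5.96% of the 23410 tested probe sets (3.36% higher and 2.60% lower). All 5 came from the 21 members that were not dim (23.8%, against 10.7% of the tested probe sets that were not dim). Differences were below 0 in 35 of 50 members, with a median of -0.08, against 54.5% and -0.02 over all tested probe sets. Of these 35, 16 were Wnt ligands, which had 12 of 19 below 0 without stimulated wild-type array 2. Arrays of the groups did not overlap for 4 members in the higher and 9 in the lower direction, against 10.9% and 10.0% of tested probe sets. Without adjustment 4 members were higher and 10 lower at p below 0.05, against 9.34% and 8.09% (17.4% in either direction). With the replicate number as a block, 7 members passed (*Fzd3* and *Axin2* in addition), as did 2108 of all tested probe sets in place of 1395.

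**Figure D1:**
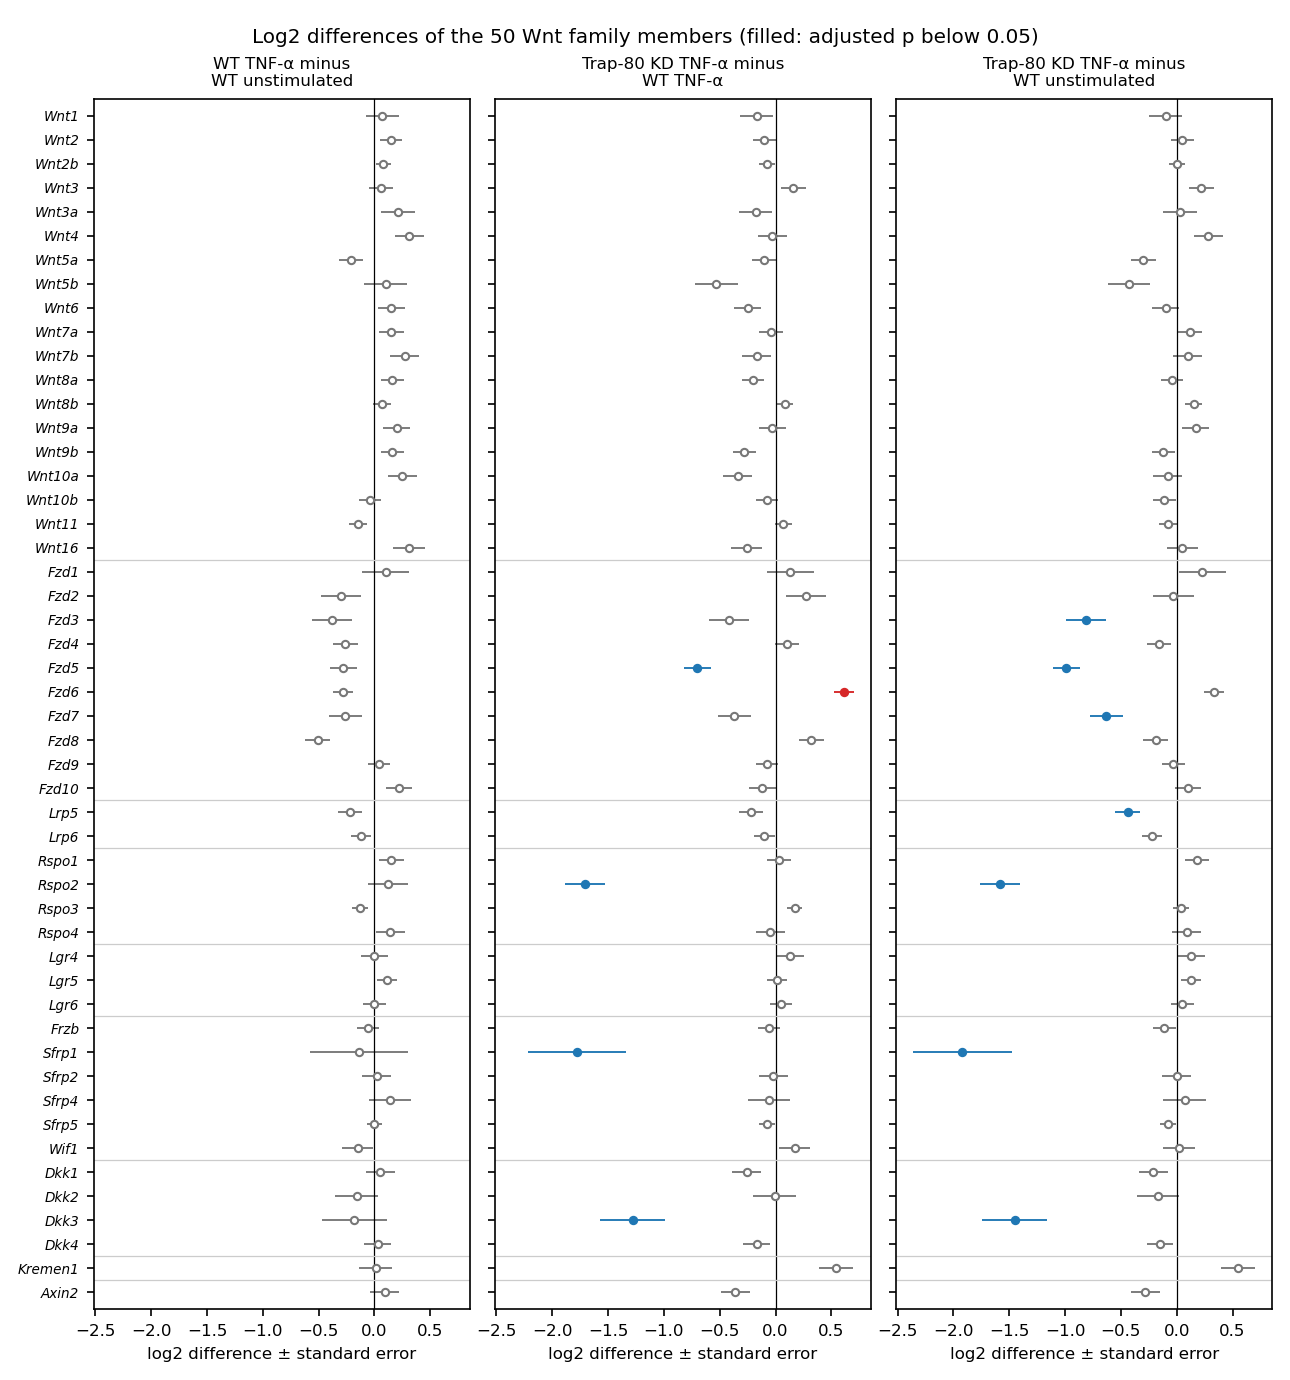
Log2 differences (x axis) of the 50 members (rows, in order of role) with their standard errors from the limma model, in the 3 comparisons; filled points passed at an adjusted p below 0.05 (blue lower, red higher), open points did not. *Rspo2*, *Sfrp1* and *Dkk3* lie beyond -1 in both comparisons with the knock-down, and no member is filled in the TNF-α comparison.

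*Rspo2*, an R-spondin, had signals of 8.55, 8.33 and 9.02 in stimulated wild-type cells and 7.13, 6.76 and 6.89 in knock-down cells. In unstimulated wild-type cells it was at 8.56, 8.30 and 8.67. The knock-down arrays were all more than 1 log2 unit below every wild-type array, stimulated or not, and the wild-type groups overlapped. The difference between knock-down and stimulated wild-type cells was -1.71 (SE 0.18, adjusted p = 8.9e-04), a 3.26-fold lower signal. The other R-spondins, all dim, differed by 0.03 (*Rspo1*), 0.17 (*Rspo3*) and -0.05 (*Rspo4*), and none passed. The R-spondin receptor *Lgr4* was above the dim range and lay between 5.59 and 6.0 over the 9 arrays. It differed by 0.13 (adjusted p = 0.66) in the knock-down cells.

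*Sfrp1*, which encodes a secreted protein that binds Wnts, had signals of 7.98, 7.05 and 8.75 in stimulated wild-type cells, 8.03, 7.36 and 8.83 in unstimulated ones and 6.18, 6.32 and 5.96 in knock-down cells. The wild-type values were wide apart and the knock-down values close together, without overlap. The difference was -1.78 (SE 0.44, adjusted p = 0.047), and its standard deviation within groups, 0.66, was at the 99.9th percentile of the tested probe sets. It no longer passed when stimulated wild-type array 1 or 3, or any one of the knock-down arrays, was left out (adjusted p = 0.11 to 0.16, difference -1.86 to -1.36). The other Wnt-binding antagonists, *Frzb*, *Sfrp2*, *Sfrp4*, *Sfrp5* and *Wif1*, were dim and differed by -0.08 to 0.17.

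*Dkk3*, the divergent member of the Dickkopf family, followed at 8.37, 8.05 and 8.88 in stimulated wild-type cells and 7.25, 6.78 and 7.42 in knock-down cells. Unstimulated wild-type cells gave 8.44, 8.19 and 9.19. All knock-down values were below all wild-type values. The difference was -1.28 (SE 0.29, adjusted p = 0.033), with a standard deviation within groups of 0.43. As with *Sfrp1*, it did not pass without stimulated wild-type array 1 or 3 or without any one knock-down array (adjusted p = 0.062 to 0.12, difference -1.41 to -1.05). In both wild-type groups array 3 gave the highest and array 2 the lowest signal of *Rspo2*, *Sfrp1* and *Dkk3*, so the wild-type spread of these genes went with the replicate number. The Dickkopfs that bind LRP co-receptors, *Dkk1*, *Dkk2* and *Dkk4*, were dim and differed by -0.26, -0.01 and -0.17. *Kremen1*, the partner of Dkk1 at the co-receptor, was at 6.52, 6.48 and 6.69 in stimulated wild-type cells and 6.75, 7.43 and 7.13 in knock-down cells. Its arrays did not overlap, with a difference of 0.54 (SE 0.15, adjusted p = 0.083). It passed without knock-down array 1 (0.72, adjusted p = 0.017) and when dim probe sets were left out of the test (adjusted p = 0.047).

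**Figure D2:**
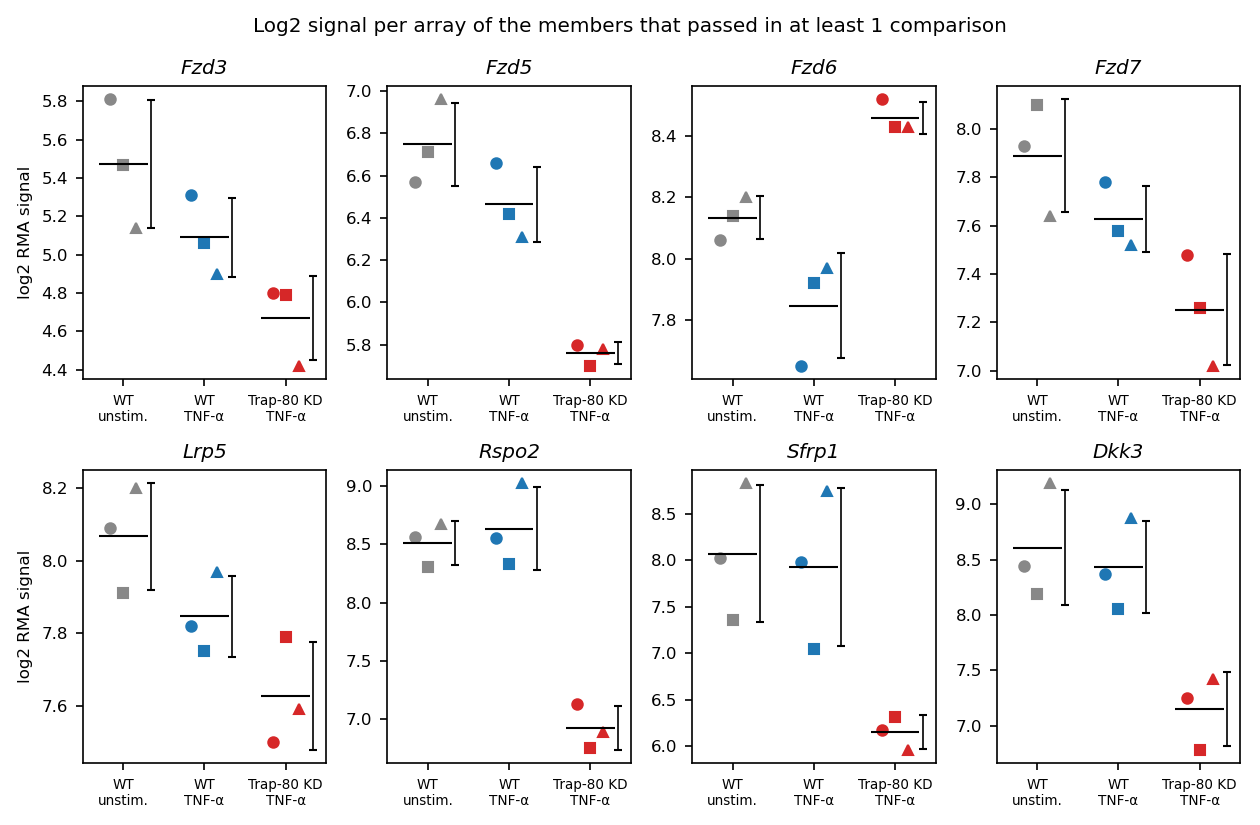
Log2 RMA signal (y axis, a separate range for each gene) on each of the 9 arrays for the 8 members that passed in at least 1 comparison. Circles, squares and triangles are replicates 1, 2 and 3, lines are group means and brackets show ± 1 SD (n = 3). The knock-down arrays of *Rspo2*, *Sfrp1*, *Dkk3*, *Fzd5*, *Fzd3* and *Fzd7* lie below, and those of *Fzd6* above, all wild-type arrays. Those of *Lrp5* overlap with stimulated wild-type arrays.

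The Frizzled receptors split in direction. *Fzd5* was at 6.66, 6.42 and 6.31 in stimulated wild-type cells and at 5.80, 5.70 and 5.78 in knock-down cells, and the groups did not overlap. It fell by 0.70 (SE 0.12, adjusted p = 0.0086), a 1.63-fold lower signal. *Fzd6*, often described as acting outside the β-catenin branch, was at 7.65, 7.92 and 7.97 in stimulated wild-type cells and at 8.52, 8.43 and 8.43 in knock-down cells. It rose by 0.61 (SE 0.09, adjusted p = 0.0051), a 1.53-fold higher signal, also without overlap. The calls for *Rspo2*, *Fzd5* and *Fzd6* held when any one of the 6 arrays compared was left out and under each of the 8 other alternatives.

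The rest of the Frizzleds did not pass. *Fzd3* went from 5.31, 5.06 and 4.90 in stimulated wild-type cells to 4.80, 4.79 and 4.42 in knock-down cells, a difference of -0.42 (SE 0.18, adjusted p = 0.26) that passed with the replicate block (adjusted p = 0.023). *Fzd7* differed by -0.37 (adjusted p = 0.23), *Fzd8* by 0.32 (adjusted p = 0.17) and *Fzd2* by 0.27 (adjusted p = 0.52). *Fzd3* and *Fzd7* had all knock-down arrays below, and *Fzd8* all above, those of stimulated wild-type cells. *Fzd1* differed by 0.13 (adjusted p = 0.81). The dim *Fzd4*, *Fzd9* and *Fzd10* differed by 0.10, -0.08 and -0.12. Over the 10 Frizzleds, 5 differences were below 0, 1 gene passed in each direction and the median was 0.01.

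**Figure D3:**
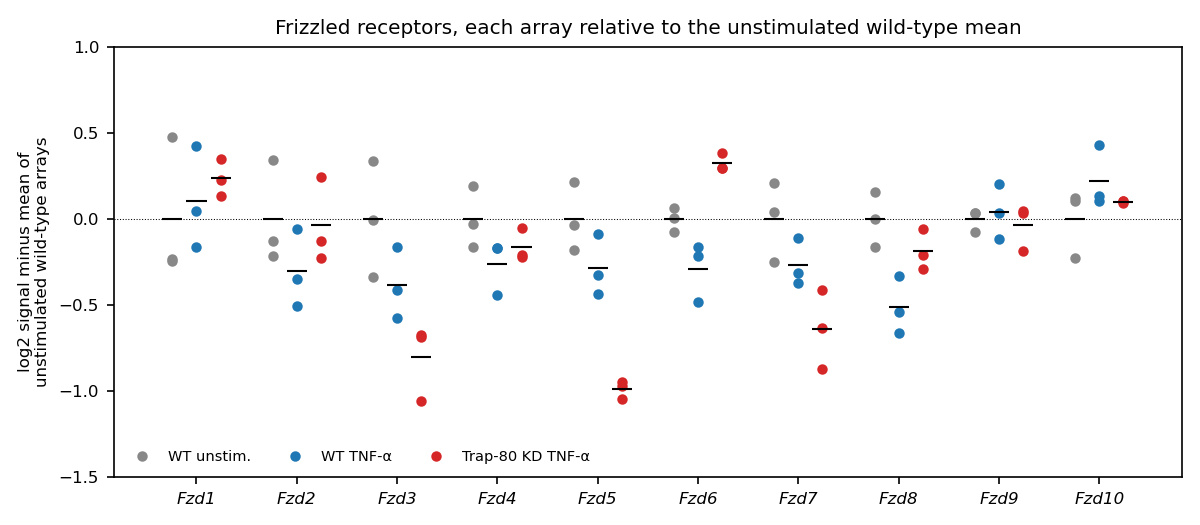
Signal of the 10 Frizzled genes on each array, as the log2 difference from the mean of the 3 unstimulated wild-type arrays (y axis); points are arrays and bars are group means. The knock-down arrays of *Fzd5* lie near -1 and those of *Fzd6* above 0, while the stimulated wild-type means are below 0 for 7 of the 10 genes.

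Upstream sequence was at hand for a part of the family. RefSeq promoter windows (GRCm38.p6, 250 bases before to 50 after a gene's start) were matched by symbol for 32 of the 50 members, in 35 windows. Of the 8 members that passed in any comparison, *Fzd5* and *Fzd7* had an entry. Their 250 upstream bases are shown because both were lower in knock-down than in unstimulated wild-type cells, 5′ to 3′ on the gene's strand, with GC boxes (GGGCGG, or CCGCCC on the other strand) in capitals. *Fzd5* is read from the minus strand at chr1:64737751-64738000 and *Fzd7* from the plus strand at chr1:59481897-59482146.

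Fzd5: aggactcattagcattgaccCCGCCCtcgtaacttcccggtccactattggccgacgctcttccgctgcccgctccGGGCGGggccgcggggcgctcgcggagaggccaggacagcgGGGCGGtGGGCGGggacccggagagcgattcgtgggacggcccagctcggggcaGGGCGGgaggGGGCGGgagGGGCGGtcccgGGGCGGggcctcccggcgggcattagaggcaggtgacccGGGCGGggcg

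Fzd7: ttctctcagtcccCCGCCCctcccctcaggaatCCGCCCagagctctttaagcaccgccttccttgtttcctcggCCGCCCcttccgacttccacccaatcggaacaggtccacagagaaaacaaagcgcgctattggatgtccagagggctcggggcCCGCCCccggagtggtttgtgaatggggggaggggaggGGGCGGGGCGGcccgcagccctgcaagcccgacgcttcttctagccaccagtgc

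The *Fzd5* stretch held 9 GC boxes and was 76.4% G or C. At least that many boxes were found in 0.0731% of all 32851 windows. The *Fzd7* stretch held 6, of which a pair share 1 base, and was 65.2% G or C; at least 6 boxes were found in 0.886% of windows, and the median G or C content was 52.4%. The GC box was added to the search after the sequences had been seen. Over the whole windows it was present in 26 of the members' 35 (74.3%) and in 35.7% of all windows. Counted over the whole window, *Fzd5* had 10 boxes and *Fzd7* had 7. *Wnt3a* had 9, *Wnt4* and *Fzd4* had 8, and *Wnt6* and *Wnt7a* had 6, though these members passed in no comparison. Many boxes were thus not particular to the members that passed. Other motifs were searched on both strands, N standing for any base. The TCF/LEF motif ATCAAAG was found for *Wnt5b* and *Wnt11* (3.73% of all windows) and the AP-1 motif TGANTCA for *Wnt5b* (7.81%). The TATA box, TATAAA, was found for *Dkk1*, *Dkk2*, *Fzd1*, *Wif1* and *Wnt11* (13.6%). For NF-κB only 1 strict form of the motif was searched, which was in no member's window and in 1.63% of all windows. With so rare a string, no match in 35 windows cannot tell whether the family lacks NF-κB sites. Looser forms and sequence outside the windows were not searched, and of the members that passed only *Fzd5* and *Fzd7* had a window. The paper looked for such sites over a much longer stretch around the start. The motif matches given here describe the letters of the windows and not binding.

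None of the 19 Wnt ligands passed in the knock-down comparison, and 3 had an unadjusted p below 0.05. Their differences ran from -0.53 to 0.16, with a median of -0.10 and 16 of 19 below 0. Without stimulated wild-type array 2 the median was -0.04, with 12 of 19 below 0, and with arrays centred on their medians it was also -0.04, with 13 of 19. *Wnt5b* had the lowest of these. It was at 6.02, 6.33 and 6.35 in stimulated wild-type cells and at 5.74, 5.72 and 5.65 in knock-down cells, without overlap, a difference of -0.53 (SE 0.19, adjusted p = 0.18) that passed when the model held only the 6 arrays compared (adjusted p = 0.039). *Wnt5a*, a ligand of the β-catenin-independent branch and of Ror2, differed by -0.10 (adjusted p = 0.73). *Wnt10b*, known to restrain adipocyte formation, differed by -0.08 (adjusted p = 0.77). *Wnt4* differed by -0.03 (adjusted p = 0.95) on the brighter probe set and by 0.27 (adjusted p = 0.33) on the dimmer one, so its probe sets disagreed in sign. The co-receptors *Lrp5* and *Lrp6* differed by -0.22 (adjusted p = 0.34) and -0.10 (adjusted p = 0.67).

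*Axin2*, a negative regulator that is widely read as a β-catenin target, was dim. It was at 4.42, 4.51 and 4.41 in unstimulated and 4.41, 4.78 and 4.41 in stimulated wild-type cells, and at 4.11, 4.41 and 3.99 in knock-down cells. Several wild-type values were equal, and 1 knock-down value reached them. The difference from stimulated wild-type cells was -0.36 (SE 0.13, adjusted p = 0.18), and it passed with the replicate block (adjusted p = 0.036).

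Stimulated knock-down cells were then set against unstimulated wild-type cells. This comparison shares the knock-down arrays with the one above, and stimulation and cell line differ together in it. Of 50 members, 0 were higher and 7 lower, against 3.64% and 4.62% of tested probe sets (8.25% in either direction). All 7 were among the 21 members that were not dim (33.3%, against 14.6% of such probe sets). Of them, *Fzd3* was not dim only through its wild-type means (5.47 and 5.09, against 4.67 in knock-down cells). The 7 were *Rspo2*, *Sfrp1*, *Dkk3*, *Fzd5*, *Fzd3*, *Fzd7* and *Lrp5*. In addition to the genes already lower above, these were a further pair of Frizzleds and a co-receptor. Without adjustment, 2 members were higher and 9 lower at p below 0.05, against 9.15% and 11.4% of tested probe sets (20.5% in either direction). The arrays did not overlap for 2 members in the higher and 10 in the lower direction, against 10.8% and 12.6%. The members' median was -0.04, with 27 of 50 below 0, against -0.01 and 52.5% of all tested probe sets.

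*Fzd5* had been at 6.57, 6.71 and 6.96 in unstimulated cells and was lower by 0.99 in the knock-down cells (difference -0.99, SE 0.12, adjusted p = 0.0014). *Fzd3* was at 5.81, 5.47 and 5.14 in unstimulated cells, and its difference was -0.81 (SE 0.18, adjusted p = 0.025). *Fzd7* was at 7.93, 8.10 and 7.64 in unstimulated, 7.78, 7.58 and 7.52 in stimulated wild-type and 7.48, 7.26 and 7.02 in knock-down cells. For these 3 Frizzleds the stimulated wild-type mean lay between the means of the other groups. The difference of *Fzd7* was -0.63 (SE 0.15, adjusted p = 0.029). *Lrp5*, the co-receptor, was at 8.09, 7.91 and 8.20 in unstimulated and at 7.50, 7.79 and 7.59 in knock-down cells. The groups did not overlap, and the difference was -0.44 (SE 0.11, adjusted p = 0.036). The values for *Rspo2*, *Sfrp1* and *Dkk3* were -1.58 (adjusted p = 0.0010), -1.92 (adjusted p = 0.027) and -1.45 (adjusted p = 0.015). *Fzd6* and *Kremen1* had all knock-down arrays above the unstimulated ones, with differences of 0.33 (adjusted p = 0.065) and 0.55 (adjusted p = 0.064).

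*Rspo2* and *Fzd5* passed in this comparison with any one array left out. *Fzd3* did not pass without unstimulated array 1 or 2 or any knock-down array (adjusted p = 0.056 to 0.091), *Fzd7* without unstimulated array 1 or 2 or knock-down array 2 or 3 (0.084 to 0.10), *Lrp5* without unstimulated array 1 or 3 or knock-down array 1 or 3 (0.091 to 0.13), *Sfrp1* without unstimulated array 1 or 3 or any knock-down array (0.070 to 0.095) and *Dkk3* without knock-down array 2 (0.059).

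TNF-α alone left the family without a call after 1 h. Of 50 members, 0 passed in limma in either direction, where 0.115% of tested probe sets did (0.111% higher and 0.00427% lower). With the replicate block, 0 members passed, as did 55 of all tested probe sets in place of 27. Without adjustment 1 member was higher and 4 lower at p below 0.05, against 3.52% and 3.58% of tested probe sets (7.10% in either direction). The arrays did not overlap for 1 member in the higher and 4 in the lower direction, against 4.01% and 6.18%. The median of the members was 0.05, with 19 of 50 below 0, against -0.02 and 54.9% over all tested probe sets.

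The medians of the Frizzleds and the ligands lay on different sides of 0 in this comparison, a difference that was not tested. Of the 10 Frizzleds, 7 had a difference below 0, the median was -0.27 (-0.17 without unstimulated array 3), and all 4 members lower without adjustment were Frizzleds. *Fzd8* had the lowest value: 6.84, 7.0 and 7.16 in unstimulated cells against 6.46, 6.34 and 6.67 after TNF-α, without overlap, a difference of -0.51 (SE 0.11, adjusted p = 0.31). *Fzd6*, *Fzd5* and *Fzd4* differed by -0.28, -0.28 and -0.26 (adjusted p = 0.63 to 0.70), *Fzd3* by -0.38, *Fzd2* by -0.30 and *Fzd7* by -0.26 (adjusted p = 0.71 to 0.74). *Fzd1*, *Fzd9* and *Fzd10* differed by 0.10, 0.04 and 0.22. Of the 19 Wnt ligands, 3 were below 0 (*Wnt5a* at -0.21, *Wnt10b* at -0.04 and *Wnt11* at -0.15) and the median was 0.15. The highest ligands were *Wnt4* and *Wnt16*, both at 0.31, *Wnt7b* at 0.27 and *Wnt10a* at 0.25 (adjusted p = 0.69 to 0.72). *Wnt4* was at 0.05 (adjusted p = 0.94) on its dimmer probe set, and *Wnt16* and *Wnt7b* were dim. *Wnt10a* was above the dim range only in stimulated wild-type cells (mean 5.14), and differed by 0.12 without array 2 of that group. Stimulated wild-type array 2 held the highest value of all 9 arrays, or tied for it, in 13 of the 16 ligands above 0, as it did in 30.2% of all tested probe sets above 0. Without that array the ligands' median was 0.09, with 4 of 19 below 0, and without unstimulated array 1 it was 0.08. The part of single arrays beyond this was not tested. *Rspo2*, *Sfrp1*, *Dkk3* and *Kremen1* differed by 0.12, -0.14, -0.18 and 0.01 (adjusted p = 0.89 to 1.00).

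Other genes of the pathway were read from lists by role. Among 14 genes for Wnt secretion and other extracellular regulators, 1 rose and 2 fell in knock-down against stimulated wild-type cells, with a median of -0.12. Shares of these lists are to be read against the 3.36% higher and 2.60% lower of all tested probe sets, and the 10.7% called in either direction among those that were not dim. *Notum*, whose product removes the lipid from Wnts and so inactivates them, was at 6.98, 7.21 and 6.89 in stimulated wild-type and 4.91, 5.45 and 5.59 in knock-down cells. It fell by 1.71 (SE 0.20, adjusted p = 0.0014). *Apcdd1*, which encodes a membrane-bound Wnt inhibitor, was at 6.36, 6.80 and 6.70 in stimulated wild-type and 7.86, 7.99 and 8.05 in knock-down cells, and rose by 1.35 (SE 0.16, adjusted p = 0.0014). *Porcn*, the acyltransferase that attaches the lipid, fell by 0.64 (adjusted p = 0.019), and did not pass without stimulated wild-type array 2 or knock-down array 1 or 2 (adjusted p = 0.060 to 0.079). With the replicate block 2 of these genes were higher and 3 lower.

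The 18 other Wnt receptors and planar polarity genes had 0 higher and 5 lower in the knock-down cells (27.8%). Their median was -0.01, against -0.02 over all tested probe sets, of which 2.60% were lower. As 12 of the 18 were not dim, the 10.7% called in either direction among such probe sets is the closer background. With centred or quantile-normalized arrays, or with all deposited probe sets tested, 3 of the 18 were lower. *Ror2*, a receptor for Wnt5a, was at 6.90, 7.02 and 6.84 in stimulated wild-type and 5.94, 5.37 and 5.12 in knock-down cells, a fall of 1.45 (difference -1.45, SE 0.18, adjusted p = 0.0021). *Ptk7*, a pseudokinase co-receptor, was at 7.44, 7.22 and 7.40 against 6.12, 6.11 and 5.82 and fell by 1.34 (SE 0.13, adjusted p = 6.3e-04). *Ror1*, the relative of *Ror2*, fell by 0.59 (adjusted p = 0.0098). The calls for *Rnf43*, the ligase that R-spondins antagonise (-0.81, adjusted p = 0.046), and *Daam2*, a formin of the polarity branch (-0.46, adjusted p = 0.038), depended on single arrays. That of *Rnf43* was lost without any one of the 6 arrays (adjusted p = 0.067 to 0.14). Without stimulated wild-type array 2, 4 genes of the list passed, and without any other single array, 3 did. *Znrf3*, the relative of *Rnf43*, differed by 0.20 (adjusted p = 0.47).

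Of 39 measured genes of the intracellular β-catenin pathway, 2 rose and 3 fell, with a median of 0.07. These 5 are 12.8% of the list, of which 33 genes were not dim, and 10.7% of tested probe sets that were not dim were called, so the share was near the background. The tankyrases, which mark Axin for degradation, both fell: *Tnks2* from 9.15, 9.09 and 9.26 to 8.38, 8.49 and 8.32 (-0.77, SE 0.08, adjusted p = 7.9e-04) and *Tnks* from 8.57, 8.62 and 8.47 to 8.02, 7.91 and 7.83 (-0.64, SE 0.08, adjusted p = 0.0019). The co-repressor *Tle4* rose by 0.52 (adjusted p = 0.012) and the kinase *Csnk1e* by 0.34 (adjusted p = 0.036). *Pygo1*, a dim nuclear co-factor of β-catenin, fell by 0.32 (adjusted p = 0.016). *Tle4* did not pass without stimulated wild-type array 1 or 2 (adjusted p = 0.052 to 0.056), *Csnk1e* without any array other than knock-down array 2 (0.056 to 0.13) and *Pygo1* without stimulated wild-type array 1 or knock-down array 1 or 3 (0.052 to 0.065). *Ctnnb1*, which encodes β-catenin, differed by 0.13 (adjusted p = 0.40).

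Of 21 measured genes that are widely used as β-catenin targets, 1 rose and 1 fell, and the median was 0.00. *Bmp4*, a secreted growth factor, was at 5.82, 5.98 and 5.96 in stimulated wild-type and 7.48, 7.45 and 7.76 in knock-down cells. It rose by 1.65 (SE 0.10, adjusted p = 5.5e-05). *Fst*, which encodes the activin antagonist follistatin, fell by 0.91 (adjusted p = 0.028) and did not pass without stimulated wild-type array 1 or knock-down array 1 or 2 (adjusted p = 0.059 to 0.096). With the replicate block 4 of the targets were higher and 2 lower. *Myc* and *Ccnd1* differed by -0.11 and 0.10. In the TNF-α comparison 0 genes of the 4 lists passed. *Jun*, an immediate-early gene, had the largest difference there (1.03, adjusted p = 0.085), and it passed with quantile normalization and with dim probe sets left out. Against unstimulated wild-type cells the knock-down cells had 1 higher and 2 lower of the extracellular regulators, 0 and 6 of the receptors and polarity genes, 2 and 3 of the intracellular genes and 5 and 1 of the targets, against 3.64% higher and 4.62% lower of all tested probe sets and 14.6% in either direction of those that were not dim.

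**Figure D4:**
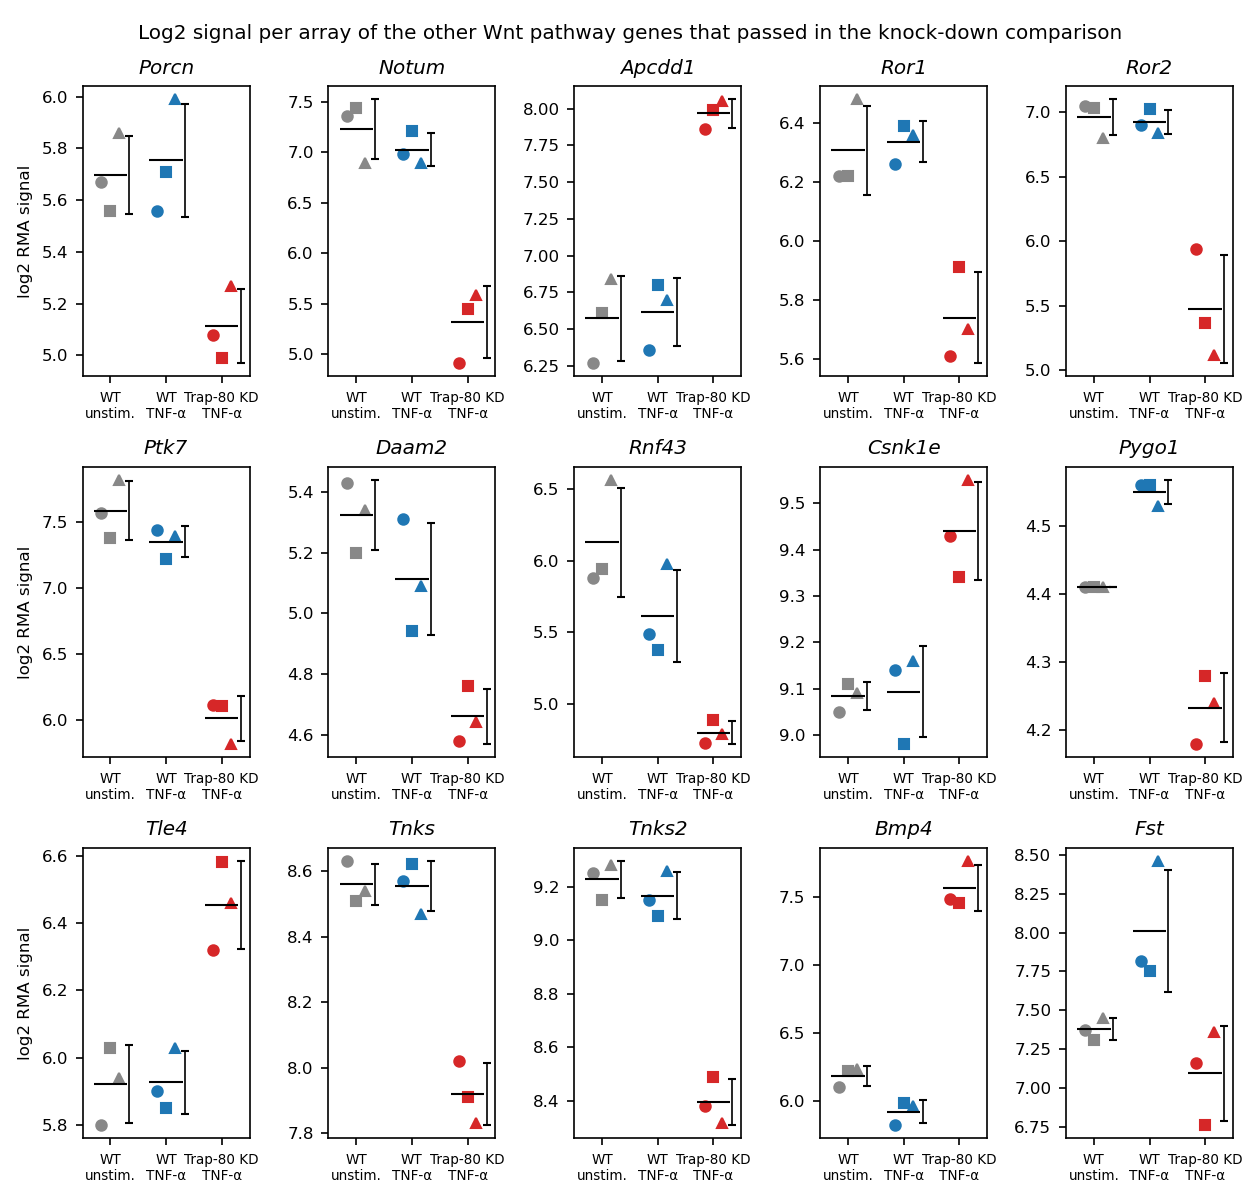
Log2 RMA signal (y axis, a separate range for each gene) on each of the 9 arrays for the 15 other pathway genes that passed between knock-down and stimulated wild-type cells. Circles, squares and triangles are replicates 1, 2 and 3, lines are group means and brackets show ± 1 SD (n = 3); *Notum*, *Ror2* and *Ptk7* lie lower, and *Apcdd1* and *Bmp4* higher, on all knock-down arrays.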

How the data were processed

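Total RNA of 9 cultures was hybridised to Affymetrix mouse gene arrays, 3 arrays to a group. The authors made log2 signals with RMA, which subtracts background, normalizes the arrays and gives 1 value per probe set. These deposited values were not rescaled. Each group had 3 cultures described as biological replicates. The p-values rest on the spread between cultures within groups, pooled over the 9 arrays and moderated by limma. They hold no spread between clones if the knock-down cultures came from a single clone, which the labels do not state. The number of arrays limits the precision: the median standard error of a difference was 0.10. The RMA version is not stated in the labels or methods.

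Probe sets were named through the platform annotation: of 35557 probe sets, 21789 had 1 symbol, 1621 several and 12147 were unnamed here. The 23410 with a gene were tested, with no filter on dim signal, with limma 3.58.1 in R 4.3.3 (lmFit and eBayes, all 9 arrays together, prior degrees of freedom 3.195). The Benjamini-Hochberg adjustment was over all 23410, at a threshold of 0.05. The code was tested on simulated data first. Listed genes with no match by symbol were left out of the counts of measured genes.

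The members, pathway and marker lists and tests were chosen with earlier results of these data known. Members named in the text are those that passed in any comparison and, in each, the 5 with the largest difference in each direction; for other pathway genes, up to 4 per list and direction that passed. *Fzd4*, *Fzd9*, *Rspo1*, *Rspo4*, *Lgr4*, *Lrp6*, *Axin2*, *Kremen1* and other members, and the pathway genes *Daam2*, *Znrf3*, *Ctnnb1*, *Myc* and *Ccnd1*, were named after their values were seen where this rule leaves them out.

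Groups share replicate numbers, whose meaning neither the labels nor the methods give. Deviations from the group mean correlated between arrays of the same number at 0.298, 0.110 and 0.403 for TNF-α and 0.147, 0.274 and 0.465 for the knock-down. Between knock-down and unstimulated arrays these values were 0.151, 0.00218 and 0.221. Arrays 1 and 2 of different groups correlated at 0.249 and 0.099 for TNF-α and at 0.16 and 0.0516 for the knock-down. Array 3 with another number gave -0.402 to -0.153 and -0.392 to -0.176. Mainly array 3 was thus set apart by its number, and arrays 1 and 2 were not clearly matched. The pairing comes from these data alone, and the replicate block was fitted as an alternative. Other alternatives were centring, quantile normalization, the 6 compared arrays alone, all deposited probe sets, no dim probe sets, an intensity trend, the mean of a gene's probe sets and leaving out each array.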

Additional observations from a re-analysis of the deposited data

How the results depend on the processing

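Of 50 members, 5 passed between knock-down and stimulated wild-type cells, 7 between knock-down and unstimulated wild-type cells and 0 for TNF-α. With the replicate block these counts were 7, 8 and 0. When all deposited probe sets were tested, 3 and 3 members passed with the knock-down, where more p-values entered the adjustment and the estimated variances changed as well. Leaving out each array in turn gave 3 to 5 members in both comparisons with the knock-down and 0 for TNF-α. The 6 remaining alternatives gave 5 to 6 and 5 to 9 members. The direction for TNF-α turned, always without a call, for *Rspo2* (0.12) to -0.07 without stimulated wild-type array 3, for *Sfrp1* (-0.14) to 0.24 without unstimulated array 3 and 0.30 without stimulated array 2, and for *Dkk3* (-0.18) to 0.11 and 0.01 without the same arrays. With single arrays left out these ranged from -0.07 to 0.27, -0.55 to 0.30 and -0.40 to 0.11. The cause was not tested. Of 763 single-gene values under an alternative, 675 kept direction and side of the threshold, 72 lost their call, 11 gained one and 5 turned. Between knock-down and unstimulated cells, the fit of the 6 compared arrays alone lost *Fzd3*, *Fzd7* and *Lrp5* (adjusted p = 0.061 to 0.078), and testing all probe sets lost these and *Sfrp1* (0.057 to 0.072). For the knock-down comparison, testing all probe sets lost *Sfrp1* and *Dkk3* (0.11 and 0.081), and the 6 arrays alone lost *Sfrp1* (0.070). Of the other pathway genes that passed between knock-down and stimulated wild-type cells, *Rnf43*, *Pygo1* and *Daam2* did not pass with centred or quantile-normalized arrays (adjusted p = 0.053 to 0.078 for *Rnf43* and *Pygo1*). Testing all probe sets lost *Porcn*, *Rnf43*, *Daam2*, *Csnk1e* and *Fst* of these pathway genes. The 6 arrays alone lost *Daam2*, *Csnk1e* and *Fst*.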

Other observations

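Among the β-catenin targets, 5 genes were higher and 1 lower in knock-down than in unstimulated wild-type cells; they are named after their values were seen. *Fosl1*, which encodes an AP-1 subunit, was at 7.21, 7.23 and 5.81 in unstimulated cells, and *Plaur*, the urokinase receptor gene, at 8.33, 8.47 and 7.41, so that unstimulated array 3 was the low one for both. Their differences were 1.45 (adjusted p = 0.022) and 1.12 (adjusted p = 0.017). *Jun* was at 7.60, 7.66 and 7.13 in unstimulated cells, with all stimulated arrays of both lines higher, and differed by 1.63 (adjusted p = 6.1e-04). *Ccn4* differed by 0.57 (adjusted p = 0.013) and *Bmp4* by 1.38 (adjusted p = 1.1e-04). All stimulated wild-type arrays of *Fosl1*, *Plaur* and *Ccn4* were also above the unstimulated ones (0.92, 0.54 and 0.29), and those of *Bmp4* below (-0.27). In knock-down against stimulated wild-type cells *Fosl1*, *Plaur*, *Ccn4* and *Jun* did not pass (adjusted p = 0.45, 0.23, 0.22 and 0.074). There *Ccn4* passed with the replicate block, *Fosl1* and *Plaur* with the 6 arrays alone and *Jun* without dim probe sets. *Ccn5*, a matricellular gene, was at 8.26, 8.12 and 9.58 in unstimulated, 8.22, 8.02 and 9.22 in stimulated wild-type and 6.94, 6.62 and 7.15 in knock-down cells. Its difference was -1.75 from unstimulated (adjusted p = 0.030) and -1.59 from stimulated wild-type cells (adjusted p = 0.057). As for *Rspo2*, *Sfrp1* and *Dkk3*, array 3 was the highest and array 2 the lowest of *Ccn5* in both wild-type groups. With any one array left out, *Bmp4* and *Jun* passed. With unstimulated array 3 left out, 6 targets were higher and 0 lower, *Fosl1* and *Plaur* among the higher. With knock-down array 1, 2 or 3 left out, 3, 3 and 2 were higher and 0 lower, and with the 6 compared arrays alone 3 and 0, and in each of these *Fosl1*, *Plaur* and *Ccn5* did not pass.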
